A study of Mus musculus with 4 samples.

Results

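Transcripts of 9 genes that build or crosslink the cornified envelope were measured with 4 Affymetrix whole-transcript arrays in mouse skin at E16.5 (E, embryonic day), an age chosen so that early changes could be seen before the skin differed much in form. The genes are the transglutaminases Tgm1, Tgm2, Tgm3 and Tgm5, the cystatin Cst6, and the scaffold genes Evpl, Ppl, Scel and Cnfn. They were taken by symbol from the 19938 genes that had a probe set annotated to that gene alone. Each of the 9 had 1 such probe set. All 9 passed the filter on dim genes and were among the 14953 genes tested. There were 2 Ovol2 BT arrays and 2 control arrays. Ovol2 BT embryos carried TRE-Ovol2-Flag, a tetracycline-responsive transgene for the zinc finger transcription factor Ovol2, together with K5-tTA, which drives it from the keratin 5 promoter of basal keratinocytes. Control embryos carried TRE-Ovol2-Flag alone or were wild type, and a control with K5-tTA alone was not analysed here. Each array received skin RNA of 2 embryos. The labels give the strain as FVB/N for Ovol2 BT and CB6F1 for controls, so strain and genotype cannot be told apart, although the protocol speaks of littermates.

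The cornified envelope is a protein shell that replaces the plasma membrane of dying keratinocytes at the skin surface. Transglutaminases are calcium-dependent enzymes that join glutamine to lysine side chains. The plakins envoplakin and periplakin are deposited under the membrane as a first scaffold, and other substrates are then crosslinked onto it. The cystatin M/E encoded by Cst6 inhibits the proteases cathepsin L and legumain and thereby restrains processing of the transglutaminase 3 precursor.

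The promoter windows of Tgm3, Tgm5 and Scel are shown because these genes differed most between the genotypes. Each runs from 250 bases before to 50 after the annotated start on the gene's own strand, in RefSeq's GRCm38.p6. The Tgm3 window is chr2:130012090-130012389 on the plus strand, that of Tgm5 chr2:121085792-121086091 on the minus strand and that of Scel chr14:103513091-103513390 on the plus strand. Capitals mark matches on either strand to 3 motifs, namely CCGTTA (the core bound by Ovol1, the close relative of Ovol2), TGANTCA (the AP-1 site) and TATAAA (the TATA box).
Tgm3: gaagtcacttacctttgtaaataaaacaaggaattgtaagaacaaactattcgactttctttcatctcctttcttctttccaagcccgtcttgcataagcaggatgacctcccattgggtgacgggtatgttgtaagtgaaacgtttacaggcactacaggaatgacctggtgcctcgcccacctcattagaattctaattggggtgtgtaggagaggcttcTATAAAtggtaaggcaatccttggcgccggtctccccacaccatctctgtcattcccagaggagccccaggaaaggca
Tgm5: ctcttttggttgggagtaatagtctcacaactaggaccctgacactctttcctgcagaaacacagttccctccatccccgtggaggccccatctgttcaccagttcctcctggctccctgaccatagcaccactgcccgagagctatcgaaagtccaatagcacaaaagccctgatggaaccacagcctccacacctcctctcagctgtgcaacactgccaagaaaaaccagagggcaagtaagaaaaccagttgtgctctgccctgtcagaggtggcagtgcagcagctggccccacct
Scel: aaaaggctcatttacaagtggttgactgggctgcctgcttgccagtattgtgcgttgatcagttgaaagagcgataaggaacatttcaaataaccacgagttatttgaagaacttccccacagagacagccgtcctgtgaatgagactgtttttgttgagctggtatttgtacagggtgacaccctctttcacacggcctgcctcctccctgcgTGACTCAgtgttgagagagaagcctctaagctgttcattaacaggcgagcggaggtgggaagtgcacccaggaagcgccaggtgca
The Tgm3 window held 1 TATAAA match, starting 28 bases before the start, and the Scel window held 1 TGANTCA match, starting 36 bases before it. The Tgm5 window held none of the 3. The table gave 6 windows for 5 of the genes, the others being Cnfn and, with a pair of windows, Tgm1, and CCGTTA occurred in 0 of these 6. Among all 32851 windows of this length, 2.76% held CCGTTA, 7.81% held TGANTCA and 13.6% held TATAAA. A match describes letters only.

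The labels matched the Ovol2 level, which was 12.93 and 12.96 on the Ovol2 BT arrays and 7.59 and 8.29 on the control arrays (log2(intensity + 16), the scale of all levels below). The epidermal keratins Krt1 and Krt10 and the dermal collagen Col1a1 were bright on all arrays (13.50 to 14.10), so epidermis and dermis were both present. Ovol2 BT replicate 2 stood apart. On it 893 genes lay over 2-fold below the mean of the other 3 arrays, against 30 to 43 on each of the other arrays. All samples are labelled female, yet the Y-linked gene Kdm5d was at 9.70 on Ovol2 BT replicate 1 and 4.80 on replicate 2, and at 9.42 on control replicate 1 and 5.76 on replicate 2. The 8 skeletal muscle markers also differed within each genotype, and all 8 were higher on Ovol2 BT replicate 2 than on replicate 1 and higher on control replicate 1 than on replicate 2. Of all genes tested, 32.7% had this order.

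The 9 genes did not move together. By limma, 0 of 9 passed the adjusted p threshold of 0.05, where 0.0268% of all genes tested did (4 of 14953). At an unadjusted p under 0.05, Tgm5 was higher in Ovol2 BT skin and Tgm3 and Scel were lower. These are 3 of 9 genes, against 4.23% of all genes tested (2.49% higher and 1.74% lower). Without Ovol2 BT replicate 2 the log2 folds were 0.65 for Tgm5, -1.78 for Tgm3 and -0.47 for Scel. The Ovol2 BT and control arrays did not overlap for 5 of the 9 (Tgm5 higher; Tgm1, Tgm3, Ppl and Scel lower), against 34.2% of all genes tested (20.1% higher and 14.1% lower). The median log2 fold, Ovol2 BT minus control, was -0.056 over the 9 genes and 0.026 over all genes tested, with 4 positive and 5 negative folds. In bulk skin, fewer cells of a type and less RNA per cell cannot be told apart.

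**Figure D1:**
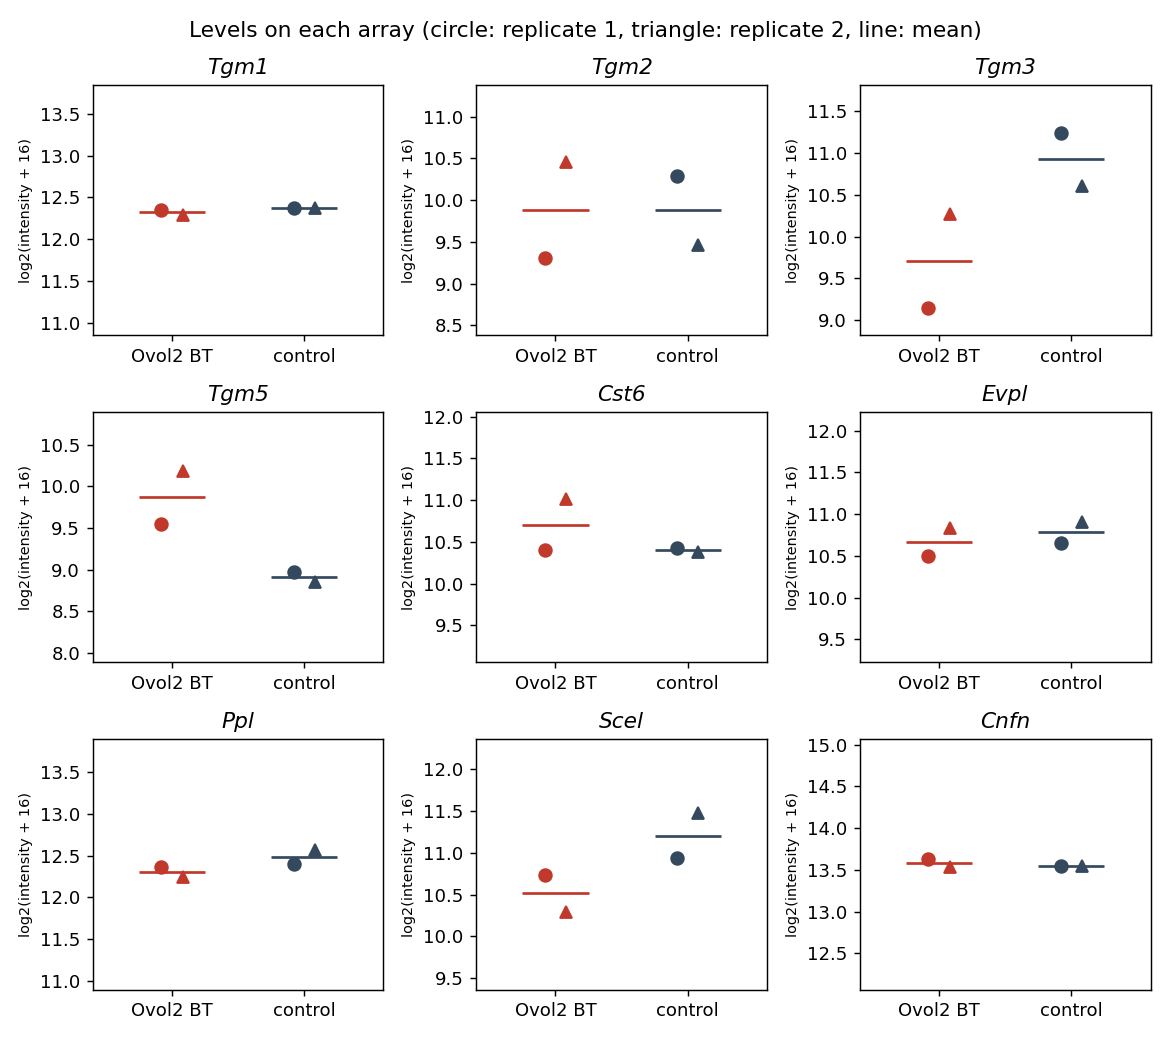
Level of each of the 9 genes as log2(intensity + 16), with Ovol2 BT on the left and control on the right of each panel. Circles are replicate 1, triangles replicate 2 and lines the mean of the 2 arrays, and every panel spans 3 log2 units. Tgm5 lies higher, and Tgm3 and Scel lower, on both Ovol2 BT arrays, while Tgm1 and Cnfn lie nearly level.

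Tgm5 encodes an epidermal transglutaminase whose loss in humans causes acral peeling skin. Its level was 9.55 and 10.19 on Ovol2 BT replicates 1 and 2, against 8.97 and 8.85 on control replicates 1 and 2. Both Ovol2 BT arrays lay above both controls, the second by more. The log2 fold was 0.96 (SE 0.26, 95% interval 0.30 to 1.62, unadjusted p = 0.0129, limma adjusted p = 0.853), or 1.95-fold. Only 0.535% of the genes tested had a higher fold. The gap between the Ovol2 BT replicates was 0.63 and that between the control replicates -0.12 (replicate 2 minus replicate 1), both smaller than the difference between the genotypes. Without Ovol2 BT replicate 2 the fold was 0.65, and without Ovol2 BT replicate 1 it was 1.28. Each of these fits holds a lone Ovol2 BT array, which is assumed to vary like the controls.

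Tgm3 encodes the transglutaminase of the upper epidermis and hair follicle, an inactive precursor until a protease cleaves it. Its level was 9.14 and 10.27 on the Ovol2 BT arrays and 11.24 and 10.61 on the control arrays. Both Ovol2 BT arrays were lower than both controls, but Ovol2 BT replicate 2 lay only 0.34 below control replicate 2. The log2 fold was -1.22 (SE 0.43, 95% interval -2.29 to -0.14, unadjusted p = 0.0329, adjusted p = 0.906). Controls were thus 2.32-fold brighter on average, and 0.314% of the genes tested had a lower fold. The replicates themselves were far apart, by 1.13 in Ovol2 BT and -0.63 in control. Without Ovol2 BT replicate 2 the fold was -1.78 (adjusted p = 0.0108, where 0.716% of all genes tested were called), and without Ovol2 BT replicate 1 it was -0.65 (adjusted p = 0.0946).

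Hair follicle sheath and shaft is a site of Tgm3 expression, and its markers had mostly positive folds. Of 12 that were tested 9 had positive and 3 negative folds, where 54.4% of all folds were positive. An unadjusted p under 0.05 was found for 2 of the 12, against 4.23% of all genes tested, both higher in Ovol2 BT skin (2.49% of all genes), namely the keratin Krt72 (0.46) and the deiminase Padi3 (1.23). The summed intensity of the list was 7348 and 8095 on the Ovol2 BT arrays and 6793 and 7372 on the controls, and these overlapped. Gata3, at 11.39 to 11.77, was the brightest of the 12 and weighed most in the sum. The genes Krt27, Krt28 and Krt33a were below the filter. Krt25 (6.93 to 7.52), Tchh (7.17 to 7.59) and Krt35 (7.50 to 7.59) were tested but lay near the filter level on all arrays. Without control replicate 2 the fold was 0.057 for Krt25 and 0.047 for Krt73, against 0.52 for Krt72 and 1.26 for Padi3. The part of the hair follicle in the Tgm3 values was not tested.

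Scel encodes sciellin, an envelope precursor of stratified epithelia. Its level was 10.74 and 10.30 on the Ovol2 BT arrays, against 10.93 and 11.47 on the control arrays. Both Ovol2 BT arrays were lower, with Ovol2 BT replicate 1 only 0.20 below control replicate 1. The log2 fold was -0.69 (SE 0.26, 95% interval -1.34 to -0.029, unadjusted p = 0.0435, adjusted p = 0.906). It was -0.47 without Ovol2 BT replicate 2 and -0.91 without Ovol2 BT replicate 1. Without control replicate 2 it was -0.42, so the size of the difference rested on single arrays of both genotypes.

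**Figure D2:**
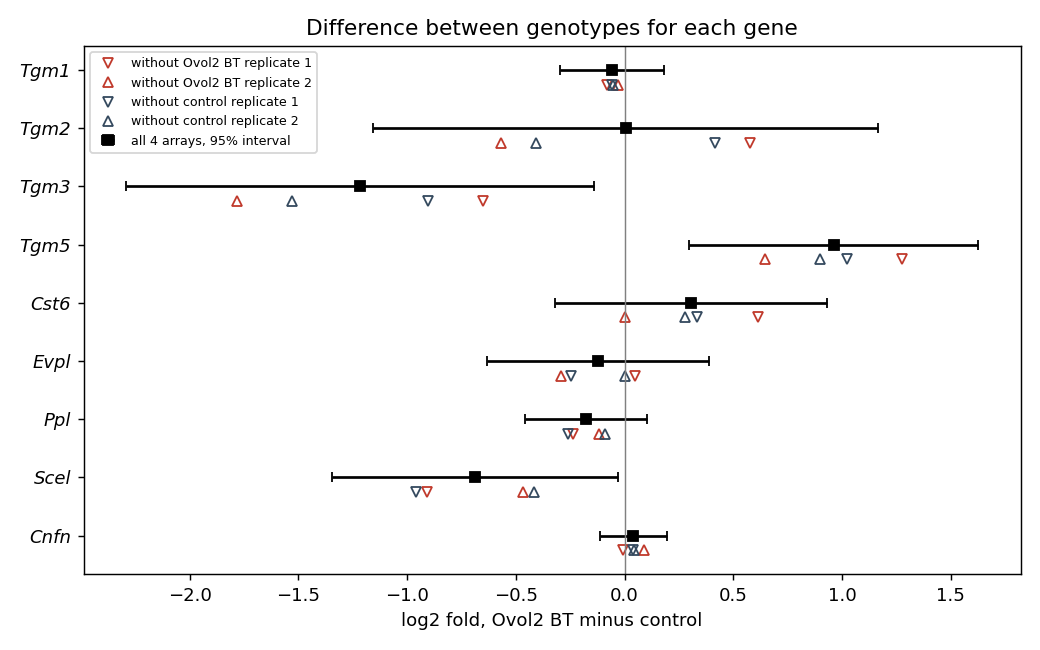
Log2 fold, Ovol2 BT minus control, of each gene. Black squares with bars are the fit over 4 arrays with its 95% interval, and open triangles below them are the fits without 1 array. The intervals of Tgm3, Tgm5 and Scel leave out 0 before adjustment for the genes tested, and the Tgm2 triangles fall on both sides of 0.

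Tgm1 encodes the membrane-bound keratinocyte transglutaminase whose loss in humans causes lamellar ichthyosis. Its level was 12.35 and 12.29 on the Ovol2 BT arrays and 12.37 and 12.38 on the control arrays. The groups did not overlap, but the 4 arrays spanned only 0.084. The log2 fold was -0.056 (SE 0.10, adjusted p = 0.936), and its 95% interval of -0.29 to 0.18 leaves out folds as large as those estimated for Tgm3 and Tgm5. Cnfn, encoding the envelope protein cornifelin, was as even, at 13.63 and 13.53 on the Ovol2 BT arrays and 13.54 and 13.55 on the controls (fold 0.041, 95% interval -0.11 to 0.19, adjusted p = 0.927). Cnfn was bright on every array, and whether bright probe sets understate a difference was not tested.

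The plakins Evpl and Ppl showed no detectable difference with these arrays. Evpl was at 10.49 and 10.83 on the Ovol2 BT arrays and at 10.66 and 10.91 on the controls (fold -0.12, 95% interval -0.63 to 0.39, adjusted p = 0.936). Its groups overlapped, and replicate 2 was the higher in each. Ppl was at 12.36 and 12.25 on the Ovol2 BT arrays and at 12.39 and 12.57 on the controls (fold -0.18, 95% interval -0.46 to 0.10, adjusted p = 0.906). Both Ovol2 BT arrays lay below both controls, by as little as 0.030.

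Cst6 was at 10.40 and 11.01 on the Ovol2 BT arrays and at 10.43 and 10.37 on the control arrays. Ovol2 BT replicate 2 alone was high, and replicate 1 lay between the controls. The log2 fold was 0.31 (SE 0.25, 95% interval -0.32 to 0.93, adjusted p = 0.906). Without Ovol2 BT replicate 2 it was 0.00 (0.000365), and without Ovol2 BT replicate 1 it was 0.61.

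Tgm2, the broadly expressed tissue transglutaminase, had nearly equal means in both genotypes and the largest SE of the 9. Its level was 9.31 and 10.45 on the Ovol2 BT arrays and 10.29 and 9.46 on the control arrays. The groups overlapped fully, with a high and a low array in each. The log2 fold was 0.0048 with an SE of 0.46 (95% interval -1.16 to 1.17, adjusted p = 0.999), so a 2-fold difference in either direction lies inside the interval. It was -0.57 without Ovol2 BT replicate 2 and 0.58 without Ovol2 BT replicate 1. The gap between the control replicates was wider for only 1.28% of the genes tested.

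The Tgm2 levels ran beside those of skeletal muscle markers. The summed intensity of the 8 markers was 27903 and 51609 on the Ovol2 BT arrays and 47872 and 29363 on the controls, the same order of arrays as for Tgm2. The genes with the nearest profile to Tgm2, a choice made after its values were seen, were Ckm, Tnnt3 and Cacnb1. They encode muscle creatine kinase, fast skeletal troponin T and a calcium channel subunit of skeletal muscle. Ckm is itself among the 8 markers in the sum. Nearness is the Euclidean distance over the 4 arrays after each gene's mean is subtracted, in log2 units, and was 0.089, 0.13 and 0.14. Within each genotype the Tgm3 replicates differed in the same direction as those of Tgm2, and its nearest profile was that of Smpx, a small muscle protein, at 0.55, followed by the enzyme gene Aldh4a1 at 0.63 and the epidermal transcription factor gene Tfap2c at 0.67. The markers' part in the Tgm2 and Tgm3 values was not tested.

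**Figure D3:**
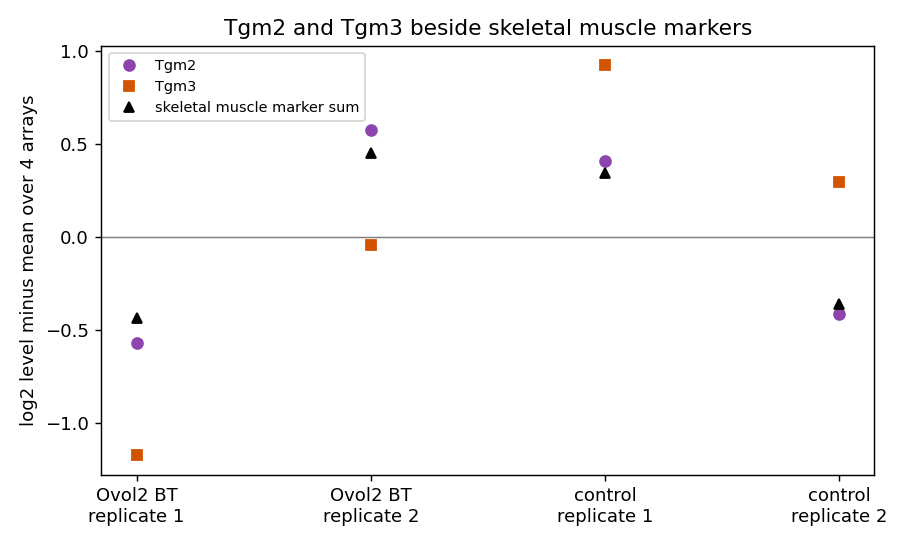
Levels of Tgm2 (circles), Tgm3 (squares) and the summed intensity of 8 skeletal muscle markers (triangles) on each array, as log2 minus the mean over the 4 arrays. Tgm2 and the marker sum lie close together on every array, while Tgm3 is offset downward on the Ovol2 BT arrays and upward on the controls.

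The profiles nearest to Tgm5 and Scel were closer than those nearest to Tgm3. For Tgm5 these were Nqo1, a quinone reductase of the oxidative stress response, at 0.060, Myl7, an atrial myosin light chain, at 0.12 and Golga7b at 0.13. For Scel they were the zinc finger factor gene Zbtb16 at 0.12, Gm14403 at 0.14 and Syne2, a nuclear envelope spectrin repeat gene, at 0.15. Over 4 arrays such nearness is a description only.

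The other members of the transglutaminase family, apart from F13a1, gave little signal. Tgm4, Tgm6, Tgm7 and Epb42 lay between 6.54 and 7.46 on every array, had means below the filter level of 7.32 and were not tested. Epb42 and Tgm7 flank Tgm5 on chromosome 2 in the RefSeq annotation, so the genes on either side of Tgm5 were too dim to set beside it. F13a1, the clotting factor XIII A subunit found in dermal macrophages, was at 11.43 and 11.10 on the Ovol2 BT arrays and 11.47 and 11.11 on the controls (fold -0.019, adjusted p = 0.988).

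Genes for other envelope substrates were mostly higher in Ovol2 BT skin. Of 36 listed, 28 were tested, with a median log2 fold of 0.67 against 0.026 over all genes tested. None passed over all genes by limma, and 20 had an unadjusted p under 0.05, all 20 higher, against 2.49% of all genes tested. Among them were the small proline-rich genes Sprr2d (1.63, SE 0.18, adjusted p = 0.218) and Sprr2h (0.95) and the late envelope genes Lce3e (1.22) and Lce1b (1.21, SE 0.13, adjusted p = 0.155). The others were Flg2, Sprr1a, Sprr1b, Sprr2b, Sprr2f, Sprr2k, Sprr3, Lce1c, Lce1d, Lce1e, Lce1f, Lce1g, Lce1h, Lce1i, Lce1l and Lce3c, with folds from 0.26 (Lce1c) to 1.35 (Flg2). The Flg2 fold was 0.58 without control replicate 2. Without Ovol2 BT replicate 2, 22 of the 28 had an unadjusted p under 0.05, all higher, against 8.59% of all genes tested. Copies within the Sprr2 and Lce1 families are alike, and their probes may share signal. Involucrin (Ivl), an early substrate, was at 12.20 and 11.72 on the Ovol2 BT arrays and 12.69 and 12.15 on the controls (fold -0.46, adjusted p = 0.906, and -0.22 without Ovol2 BT replicate 2). Tgm5 thus shared the direction of most substrates, Tgm3 and Scel did not, and Tgm1 lay near 0.

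Of the proteases and other cystatins, 11 of 12 listed genes were tested, with a median fold of 0.19. Cathepsin L (Ctsl), a target of the cystatin encoded by Cst6, was at 12.58 and 12.48 on the Ovol2 BT arrays and 12.08 and 12.23 on the controls (fold 0.37, unadjusted p = 0.0168, adjusted p = 0.906). It was the only one of the 11 with an unadjusted p under 0.05, against 4.23% of all genes tested. Legumain (Lgmn) was at 0.25 (adjusted p = 0.906). Macrophages are rich in cathepsins. The summed intensity of 10 macrophage markers was 13310 and 15008 on the Ovol2 BT arrays and 11505 and 9884 on the controls. Folds were positive for 8 and negative for Cd14 and Mrc1. None of the 10 passed over all genes, and 3 had an unadjusted p under 0.05, all higher (2.49% of all genes tested), namely Lyz2 (0.63), C1qb (0.51) and C1qc (0.61). Their part in the cathepsin values was not tested.

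Among 13 tested plakin and desmosome genes the median fold was -0.074, with 5 positive and 8 negative, where 45.6% of all folds were negative. At an unadjusted p under 0.05 there were 3 of the 13, against 4.23% of all genes tested. The desmocollin Dsc3 (-0.81, adjusted p = 0.886, and -0.48 without Ovol2 BT replicate 2) and the plakophilin Pkp1 (-0.22, adjusted p = 0.906) were lower and corneodesmosin Cdsn (0.31, adjusted p = 0.906) higher. The desmoplakin gene Dsp, a relative of Evpl and Ppl, was at -0.040 (adjusted p = 0.945). The other plakin genes on the list were at -0.53 (Dst), -0.17 (Macf1), 0.19 (Plec) and 0.38 (Eppk1), none at an unadjusted p under 0.05. Of 7 tested genes on a list of calcium and other regulators, none had an unadjusted p under 0.05. The 2 with the largest folds were the palmitoyltransferase gene Zdhhc21 (-0.42, and 0.087 without Ovol2 BT replicate 2) and Rarres1 (-0.23, and -0.063 without control replicate 2). The transcription factor genes Grhl3 (-0.14), which acts on Tgm1 in mouse epidermis, and Klf4 (-0.068) were near 0.

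**Figure D4:**
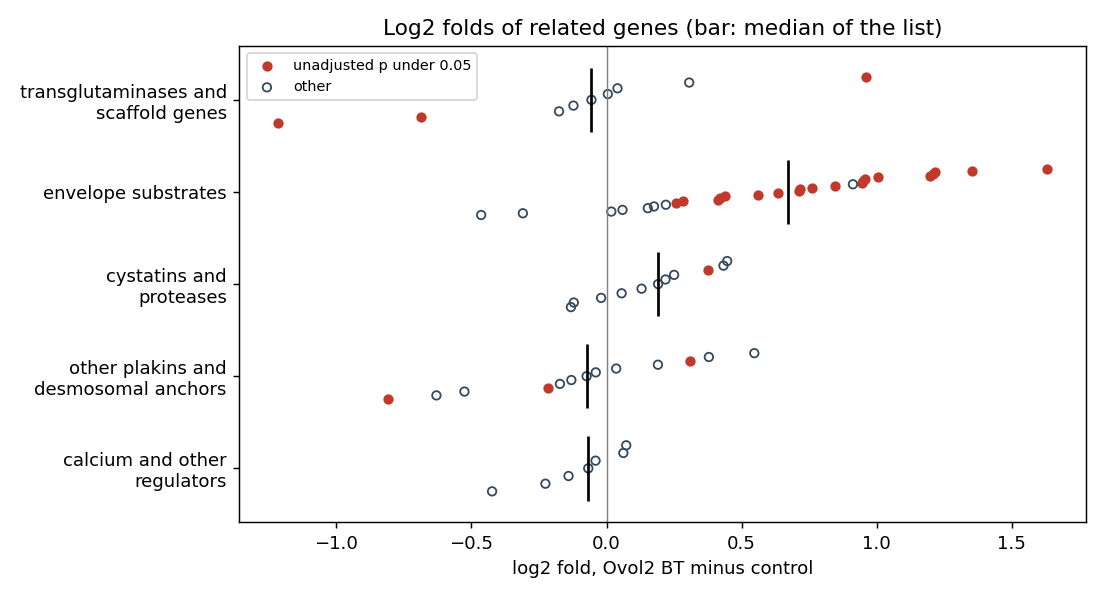
Log2 fold, Ovol2 BT minus control, of the 9 genes and of 4 lists of related genes. Each point is a gene, filled where the unadjusted p is under 0.05, and bars are medians. The substrate list lies mostly to the right (median 0.67), whereas the 9 genes spread from -1.22 to 0.96 around a median of -0.056.

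Markers of some epidermal layers differed between the genotypes beside these values. The summed intensity of 9 periderm markers was 36605 and 37387 on the Ovol2 BT arrays and 20551 and 18782 on the controls. The keratin Krt8 (2.34, adjusted p = 0.0253) rose, and 6 more, Krt18, Krt19, Krt6a, Krt17, Cldn6 and Gabrp, were higher at an unadjusted p under 0.05 (2.49% of all genes tested), whereas Arhgap29 (-0.47) and Sfn (-0.012) did not pass. The sum of 8 basal markers was 26260 and 27332 on the Ovol2 BT arrays and 39832 and 41939 on the controls. Of these the keratins Krt5 (-0.87), Krt14 (-0.66) and Krt15 (-1.41) were lower at an unadjusted p under 0.05 (1.74% of all genes tested), and the other 5 did not pass, with folds from -0.53 (Dst) to 0.45 (Itgb4). The 6 measured spinous markers summed to 55036 and 52842 on the Ovol2 BT arrays and 56840 and 57796 on the controls, with 5 negative folds and none at an unadjusted p under 0.05. The 9 measured granular markers are of the layer where transglutaminases act. They summed to 72361 and 68018 on the Ovol2 BT arrays and 70434 and 64932 on the controls, and these overlapped. Lor and Hrnr were the brightest of the 9 and weighed most in the sum. Of the folds 7 were positive and 2 negative. Flg2 (1.35) and Cdsn (0.31) were higher at an unadjusted p under 0.05 (2.49% of all genes tested). The part of the layers in the values of the 9 genes was not tested.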

How the data were processed

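The table deposited by the authors holds 1 linear intensity for each probe set on each array, summarised by PLIER 2.0 within Expression Console 1.1.1 of Affymetrix, per the submitters' processing notes. How arrays were normalised and which genome build the probe sets follow is not given in the sources used here, and no probe set coordinates are printed. Of 35557 probe sets, 21789 had 1 gene symbol, 1621 several and 12147 no listed gene. Symbols were updated by Entrez number to RefSeq GRCm38.p6, which matched 21698.

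Values were taken to log2(intensity + 16), which shrinks folds of dim genes. The brightest probe set of each gene was used, and genes with a mean under the 25th percentile (7.32) were left out. limma 3.58.1 in R 4.3.3 fitted Ovol2 BT minus control with an intensity trend (2 residual and 3.45 prior degrees of freedom), with Benjamini-Hochberg adjustment over 14953 genes, and was tested on simulated data. With 2 arrays in each group the smallest p of an exact permutation test is 0.333, so none was run. Precision is limited by the number of arrays. Nothing in the labels says whether replicates came from separate litters.

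The 9 genes, the related lists and the markers were chosen with earlier results of these data known. All 9 genes were named, with the 3 nearest profiles of Tgm3, Tgm5 and Scel, and members of the related lists with an unadjusted p under 0.05 or the 2 largest folds. The cell type markers named and Ivl, Lgmn, Dsp, Dst, Macf1, Plec, Eppk1, Grhl3, Klf4 and the profiles nearest to Tgm2 were chosen after their values were seen.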

Additional observations from a re-analysis of the deposited data

How the results depend on the processing

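Between-array normalisation, offset, filter, variance model, array weights, the mean of all probe sets and the replicate block were varied with all 4 arrays kept. None of the 9 genes passed the threshold in these 12 settings. The lowest limma adjusted p was 0.310, for Tgm3 with replicate 1 of each genotype paired to replicate 2 of the other. That pairing was added after seeing the data, and in the remaining settings the lowest was 0.791, for Tgm5 with array weights. The unadjusted limma p of Scel, 0.0435 in the main fit, was 0.0572 with cyclic loess, 0.0682 with array weights and 0.0549 with the replicate block. By construction 7 of the settings leave the folds of the 9 genes as they were. In the other 5 (cyclic loess, quantile normalisation, median centring and the offsets) 44 of 45 folds kept their direction, the exception being Tgm2 at -0.010 with cyclic loess. The number of genes called over all tested, 4, was 10 with median centring, 0 with cyclic loess (673 at an unadjusted p under 0.05), 0 without an intensity trend (601 at an unadjusted p under 0.05) and 9 with a replicate block. The cause was not tested. With the block 0 of the 9 genes were called. Same-numbered arrays deviated with a correlation of -0.17 over genes, and the crossed pairing, added after seeing the data, called 5 genes.

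Leaving out 1 array mattered more. The number of genes called ranged from 4 to 2453, with the highest count when Ovol2 BT replicate 1 was left out, 107 when Ovol2 BT replicate 2 was and 7 when control replicate 1 was. Folds ranged from -1.78 to -0.65 for Tgm3, from 0.65 to 1.28 for Tgm5, from -0.96 to -0.42 for Scel and from 0.00 (0.000365) to 0.61 for Cst6. The direction changed for Tgm2 (-0.57 to 0.58, and -0.41 without control replicate 2), Evpl (-0.29 to 0.046, and 0.0021 without control replicate 2) and Cnfn (-0.0089 to 0.090), while Tgm1 and Ppl kept theirs. The median over the 9 genes ranged from -0.12 to -0.0089. With 2 arrays a group, an adjusted p above the threshold does not show that a gene was unaffected.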
